A study of Mus musculus with 2 samples.

Results

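The MSC class of mouse bone marrow stroma was made up of the cells that the authors retained after filtering and to which their deposited annotation gives the class MSC. It held 1317 of the 2847 retained cells, 502 in the sample Stroma1 and 815 in the sample Stroma2. It was the largest of the 7 deposited classes, with 53.0% of the retained cells of Stroma1 (exact binomial 95% interval 49.7 to 56.2%) and 42.9% of those of Stroma2 (40.7 to 45.2%). These intervals take cells as independent and cover counting error alone. The class was compared with 3 classes named for bone (Osteoblast progenitor, Pre-osteoblast/chondrocyte and Pro-osteoblast) and 2 named for fat (Adipocyte progenitor and Pre-adipocyte), the 5 other classes with at least 15 cells in each sample.

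Stromal cells of the marrow that make large amounts of CXCL12 and carry the leptin receptor lie around sinusoids and arterioles, and they are known as a main source of the factors that hold and feed blood stem and progenitor cells there. CXCL12 retains CXCR4-bearing blood cells, and stem cell factor, encoded by Kitl, binds the receptor Kit on them. The same stromal cells are known to give rise to fat cells and to bone-forming cells, and the transcription factors EBF3 and FOXC1 are known to maintain them.

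Both samples were stromal cells of mouse marrow, strain C56BL/6 as the labels spell it, aged 8 to 16 weeks, with no treatment, allele or transgene named. Thigh, shin and pelvic bones were crushed, digested with enzymes, and sorted by flow cytometry for live cells lacking CD45, Ter119 and CD31, which removes most blood and endothelial cells. Messenger RNA was read in droplets by inDrops, in 2 libraries for Stroma1 and 3 for Stroma2. Nothing in the labels says that the samples came from separate animals, so errors and p-values measure only the spread between these 2 samples, which may be technical.

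Within the MSC class a cell had a median of 1377.5 counts and 754 genes in Stroma1 and 1160 counts and 655 genes in Stroma2. The summed class held 729261 and 1026121 counts. MSC made up 52.8 and 53.2% of the retained cells in the 2 libraries of Stroma1 and 41.0 to 44.3% in the 3 libraries of Stroma2, so the share varied little between libraries of a sample. Libraries of the same sample shared cell barcodes more often than libraries of different samples, 32 for the pair of Stroma1 and 74 to 104 for the pairs of Stroma2 against 2 to 4 across samples. Of 235 barcodes found more than once, 70 had a copy in MSC, and taking each barcode once per sample left 1249 MSC cells. The samples resembled each other closely: of 1712 genes with a mean of at least 100 CPM (counts in every 1000000, here of the summed MSC counts), 0 differed over 2-fold between the samples and 21 differed over 1.5-fold.

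Throughout, a level is the gene's share of the summed counts of a class in a sample, in CPM, with Stroma1 given first. A difference is the log2 difference fitted by edgeR's quasi-likelihood test to the summed counts, with its standard error (SE, n = 2 samples in each class). It is scaled by the trimmed mean of M-values (TMM), which compares the bulk of genes between classes. The TMM factors were 1.246 and 1.252 for MSC and 0.59 and 0.506 for Pro-osteoblast, so a ratio of CPM to that class is larger than the fitted difference. A gene passed the threshold where its Benjamini-Hochberg adjusted p was under 0.05 among 6229 genes. The authors drew the classes from these same cells, so passing is no independent test of the class. All contrasts share the MSC counts.

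Cxcl12, Lepr and Adipoq, 3 of the 6 genes taken as markers of the class, had an entry in the RefSeq promoter table (GRCm38.p6). They are shown because these genes hold the highest marker levels of the class. Cxcl12 lies on chromosome 6 from 117168535 to 117181367, Lepr on chromosome 4 from 101717404 to 101815352, and Adipoq on chromosome 16 from 23146536 to 23158028, all on the plus strand of GRCm38 in GENCODE vM21. The stretches below are the 250 bases before the annotated start, 5′ to 3′ on the plus strand, at chr6:117168285-117168534, chr4:101717656-101717905 (the downstream of the 2 Lepr starts) and chr16:23146286-23146535. Capitals mark GC boxes, the letters GGGCGG on either strand.
Cxcl12: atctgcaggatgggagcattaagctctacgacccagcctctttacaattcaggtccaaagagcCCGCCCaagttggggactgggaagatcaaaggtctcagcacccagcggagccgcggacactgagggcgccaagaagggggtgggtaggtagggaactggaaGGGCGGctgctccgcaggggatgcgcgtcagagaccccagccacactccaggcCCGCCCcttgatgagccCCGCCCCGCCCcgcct
Lepr: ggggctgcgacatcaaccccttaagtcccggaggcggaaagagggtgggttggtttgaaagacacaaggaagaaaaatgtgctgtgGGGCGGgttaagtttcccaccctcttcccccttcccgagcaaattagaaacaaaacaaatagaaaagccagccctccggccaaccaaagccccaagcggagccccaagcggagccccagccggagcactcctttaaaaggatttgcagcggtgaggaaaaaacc
Adipoq: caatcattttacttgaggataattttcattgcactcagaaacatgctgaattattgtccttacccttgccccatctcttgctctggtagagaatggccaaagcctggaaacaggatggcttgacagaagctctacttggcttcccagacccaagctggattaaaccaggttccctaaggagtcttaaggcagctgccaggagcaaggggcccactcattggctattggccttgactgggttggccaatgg
The Cxcl12 stretch held 5 GC boxes, of which the last 2 overlap by a base, the Lepr stretch held 1 and the Adipoq stretch held 0. The stretch before the upstream Lepr start, at chr4:101717157-101717406, held 0 and is not printed. A GC box occurred in the same stretch of 68.8% of the 4860 genes that passed the count filter and had an entry. The EBF letters (TCCC and, after 2 bases of any kind, GGGA) and the C/EBP letters TTGCNNAA, searched on both strands, were in none of these stretches. The EBF letters occurred in 1.15% and the C/EBP letters in 9.47% of those 4860 genes. Chrdl1, on chromosome X from 143285674 to 143394262 on the minus strand, Sfrp4, on chromosome 13 from 19623104 to 19632994 on the plus strand, and Il34, on chromosome 8 from 110741829 to 110805924 on the minus strand, are given by position alone.

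The class was first checked against its markers, which had been chosen with results of these data known. Cxcl12 alone made up 63488 and 65664 CPM of the MSC counts, the most abundant transcript of the class. Its level was 58707 and 59579 CPM in Adipocyte progenitor, 47899 and 43714 CPM in Pre-adipocyte, 48552 and 42723 CPM in Osteoblast progenitor, 3586 and 2999 CPM in Pre-osteoblast/chondrocyte and 1688 and 482 CPM in Pro-osteoblast. The first 4 classes therefore formed a high group that did not overlap the last 2. Against Adipocyte progenitor the difference was -0.04 ± 0.18 (adjusted p = 0.986, edgeR) and against Pre-adipocyte 0.21 ± 0.18 (adjusted p = 0.557), so these neighbours were not told apart by Cxcl12. Against Osteoblast progenitor it was 0.48 ± 0.18 (adjusted p = 0.0977), and against Pro-osteoblast it was 5.06 ± 0.23.

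Lepr, the leptin receptor, stood at 1951 and 1918 CPM in MSC, 1846 and 1670 CPM in Adipocyte progenitor and 1557 and 1571 CPM in Pre-adipocyte. It was lower in Osteoblast progenitor, at 1010 and 851 CPM, with a difference of 1.03 ± 0.13, and it reached 58.8 and 24.8 CPM in Pro-osteoblast. Lepr counts may include reads of Leprot, a gene known to share its start with Lepr, since how overlapping genes were counted is not given in the sources used here. Adipoq, the fat-cell hormone adiponectin, was high in the same 4 classes, with 1925 and 1808 CPM in MSC, 1990 and 1952 CPM in Adipocyte progenitor, 2255 and 1399 CPM in Pre-adipocyte and 1492 and 1136 CPM in Osteoblast progenitor. Its difference was -0.25 ± 0.13 from Adipocyte progenitor (adjusted p = 0.436, edgeR) and 0.49 ± 0.13 from Osteoblast progenitor.

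Chrdl1, a secreted antagonist of bone morphogenetic proteins (BMPs), stood at 1423 and 1587 CPM in MSC and at 633 and 422 CPM in Osteoblast progenitor, a difference of 1.52 ± 0.16. Pre-osteoblast/chondrocyte had 0 Chrdl1 counts in both samples, so MSC was at least 76.4-fold higher, with a floor of 3 counts over both samples. Such bounds are on the TMM scale, and with count totals alone this one is 88.6. Sfrp4, a secreted Wnt antagonist, was the 1 marker that passed the threshold against every other class. It stood at 1678 and 1538 CPM in MSC against 1189 and 926 CPM in Adipocyte progenitor, 810 and 641 CPM in Pre-adipocyte and 394 and 319 CPM in Osteoblast progenitor. The differences were 0.45 ± 0.12, 0.87 ± 0.15 and 2.15 ± 0.15. The first did not pass with DESeq2 (adjusted p = 0.269), with no low-count filter (0.365) or without library 1.1 (0.0725). Il34, a ligand of the macrophage growth factor receptor, stood at 580 and 606 CPM in MSC, with a difference of 0.32 ± 0.17 from Adipocyte progenitor (adjusted p = 0.489) and 2.1 ± 0.21 from Osteoblast progenitor.

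**Figure D1:**
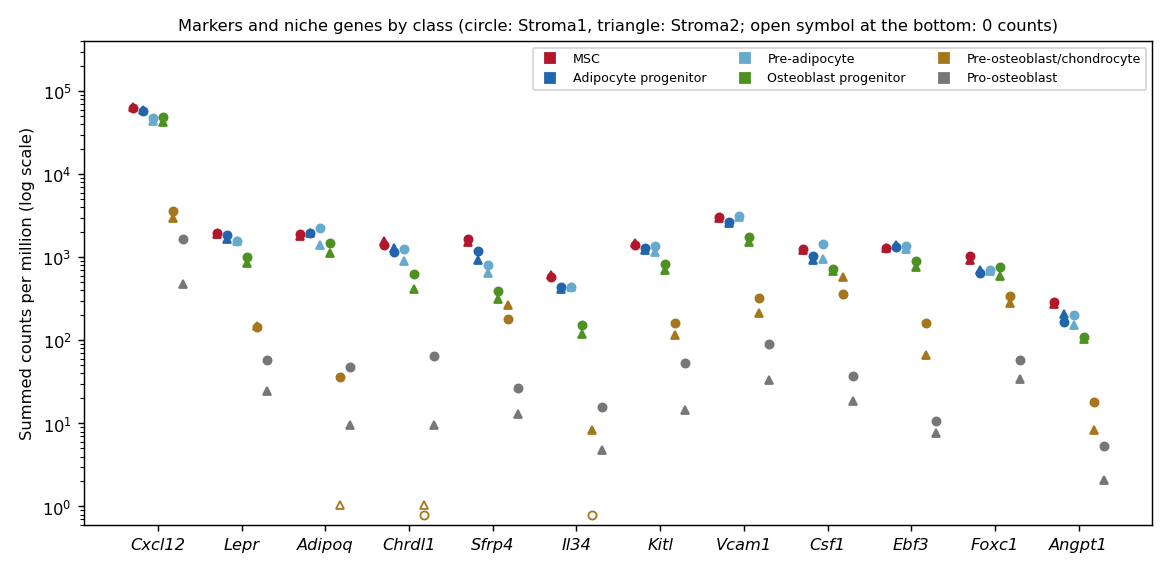
Summed CPM (log axis) of the 6 markers and 6 further niche and regulator genes, 1 colour per class, circle for Stroma1 and triangle for Stroma2, with open symbols where a sample had 0 counts. MSC, Adipocyte progenitor and Pre-adipocyte lie close together for most genes, while Pre-osteoblast/chondrocyte and Pro-osteoblast lie lower (Cxcl12 at 63488 and 65664 in MSC against 1688 and 482 in Pro-osteoblast).

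Detection cell by cell followed the levels. At least 1 Cxcl12 count was found in 100% of MSC cells of Stroma1 and 99.8% of those of Stroma2. In Pro-osteoblast, which was read more deeply (medians of 4422 and 4201 counts per cell), the shares were 38.1 and 28.9%, and they fell to 14.3 and 10.2% when every cell was thinned to 500 counts. Thinned in the same way, 57.8 and 57.1% of MSC cells had a Lepr count, against 2.38 and 0.656% of Pro-osteoblast cells. The shares in MSC were thus above those in a class read more deeply. A pair of other genes used to mark stromal cells was near absent. Nes, the filament protein used to mark perivascular cells, had 0 counts in 502 and 815 MSC cells, which allows a share of up to 0.598 and 0.368% of cells with a count, for counting error alone. Ly6a, which encodes Sca-1, was counted in 0.199 and 0.368% of MSC cells.

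Against the equally weighted mean of the other 5 classes, 696 genes were higher in MSC (11.2% of those tested) and 589 were lower (9.46%). Against Adipocyte progenitor 14 genes were higher (0.225%) and 246 lower (3.95%), 4.17% in all, and against Osteoblast progenitor 206 were higher (3.31%) and 288 lower (4.62%), 7.93% in all. Against Pre-adipocyte 116 were higher (1.86%) and 528 lower (8.48%), against Pre-osteoblast/chondrocyte 537 were higher (8.62%) and 583 lower (9.36%), and against Pro-osteoblast 1165 were higher (18.7%) and 1242 lower (19.9%). These counts also depend on how many counts a class holds, and they do not rank the distances of the classes. With the totals of counts alone in place of TMM, the median gene moved up by 0.39 in the mean contrast, by 0.04 against Osteoblast progenitor and by 1.24 against Pro-osteoblast, where the share of higher genes among those passing went from 48.4 to 90.7%. For the mean contrast that share went from 54.2 to 85.8%, for Adipocyte progenitor from 5.4 to 21.8%, for Osteoblast progenitor from 41.7 to 47.4%, for Pre-adipocyte from 18.0 to 56.1% and for Pre-osteoblast/chondrocyte from 47.9 to 60.5%. Directions below are relative to the TMM scale, on which the median of all genes in the mean contrast was 0.02.

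Secreted factors that act on blood cells were examined first. Of 34 niche ligand genes that passed the count filter, out of 49 listed, 18 were higher than the mean of the other classes and 2 were lower. The median difference was 0.76, or 0.49 when the 9 genes with a class at 0 counts are set at their bounds. Of all tested genes 11.2% were higher than the mean and 9.46% lower, and every list count against the mean is read beside these shares. Kitl stood at 1426 and 1504 CPM in MSC, 1314 and 1224 CPM in Adipocyte progenitor, 838 and 715 CPM in Osteoblast progenitor and 53.4 and 14.5 CPM in Pro-osteoblast. MSC and Adipocyte progenitor did not differ in Kitl beyond their error (0.05 ± 0.12), while Osteoblast progenitor was lower (0.89 ± 0.13). Csf1, the macrophage growth factor, showed the same order with 1262 and 1214 CPM in MSC and 717 and 679 CPM in Osteoblast progenitor, a difference of 0.79 ± 0.14. Angpt1, a ligand of the endothelial receptor Tie2, had 291 and 277 CPM in MSC and 109 and 105 CPM in Osteoblast progenitor, a difference of 1.37 ± 0.25. Il7, the lymphocyte growth factor, was low throughout the group, at 74.0 and 105 CPM in MSC and 71.2 and 77.1 CPM in Osteoblast progenitor.

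Rarres2, which encodes the chemoattractant chemerin, had one of the wider differences in this list, 2.96 ± 0.15 against the mean, from 986 and 823 CPM in MSC and 323 and 242 CPM in Osteoblast progenitor. Against single classes the list split. Against Osteoblast progenitor 9 of the 34 genes were higher and 1 lower, and against Pro-osteoblast 25 were higher and 3 lower. Against Adipocyte progenitor all 7 that passed were lower, and against Pre-adipocyte 2 were higher and 8 lower. The chemokine and cytokine genes Cxcl1, Ccl7 and Il6 were among those lower genes. Cxcl1, a neutrophil chemoattractant, stood at 53.5 and 48.7 CPM in MSC, 751 and 865 CPM in Adipocyte progenitor and 2801 and 1998 CPM in Pre-adipocyte, with differences of -4.16 ± 0.2 and -5.81 ± 0.19. Tnfsf11, the osteoclast factor RANKL, was at 115 and 128 CPM in MSC and at 618 and 469 CPM in Pre-adipocyte, a difference of -2.42 ± 0.24. Vcam1, the adhesion molecule that binds integrins of blood cells, stood at 3058 and 2983 CPM in MSC, at 3114 and 3081 CPM in Pre-adipocyte and at 1764 and 1547 CPM in Osteoblast progenitor, a difference of 0.84 ± 0.13 from the last.

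Complement and acute-phase genes, which encode proteins better known from liver, were next: 14 of 18 were higher than the mean and 2 were lower, with a median difference of 1.64. Serping1, the inhibitor of the first complement complex, stood at 7177 and 7338 CPM in MSC and 3613 and 3136 CPM in Osteoblast progenitor, a difference of 1.08 ± 0.13. C2 had 522 and 571 CPM in MSC and 226 and 177 CPM in Osteoblast progenitor (1.43 ± 0.2). Hp, the haemoglobin-binding protein haptoglobin, had 6201 and 5663 CPM against 2791 and 2401 CPM (1.16 ± 0.12). C1s1 and C2 had 0 counts in Pre-osteoblast/chondrocyte, which places MSC at least 32.8-fold and at least 27.7-fold higher. Against Adipocyte progenitor, where 4.17% of all genes passed, 1 of the 18 genes passed, and it was lower. For interferon response and antigen presentation 14 of 26 genes were higher than the mean and 1, Irf1, was lower, and with count totals alone 24 were higher. Against Adipocyte progenitor 0 of the 26 were higher and 1 was lower, while against Pro-osteoblast 24 were higher. H2-K1, a class I histocompatibility chain whose reads may be shared with its close relatives, differed by 2.67 ± 0.15 from Pro-osteoblast, while its difference from Adipocyte progenitor was -0.06 ± 0.12 (adjusted p = 0.957).

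Among surface receptors 20 of 47 genes were higher than the mean and 5 were lower, where 11.2% of all genes were higher and 9.46% lower. Against Adipocyte progenitor, where 4.17% of all genes passed with edgeR, 0 of the 47 passed with edgeR or with DESeq2. At an unadjusted p under 0.05, 6 of them were higher and 2 lower than in that class with edgeR. Pdgfrb, the platelet-derived growth factor receptor of perivascular cells, stood at 1151 and 1178 CPM in MSC and differed by 4.92 ± 0.24 from Pro-osteoblast. Pdgfra, at 499 and 515 CPM, had a difference of 0.12 ± 0.16 from Pro-osteoblast (adjusted p = 0.606, edgeR) and of 0.62 ± 0.16 from Osteoblast progenitor. The latter did not pass without library 1.2 (adjusted p = 0.0655, edgeR) or library 2.2 (0.0637). Pth1r, the parathyroid hormone receptor, was lower in MSC than in Osteoblast progenitor, by -1.02 ± 0.23, and lower than in Pro-osteoblast, by -2.23 ± 0.21.

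Of 57 transcription factor genes 16 were higher and 13 lower than the mean, where 11.2% of all genes were higher and 9.46% lower. Ebf3 stood at 1311 and 1298 CPM in MSC, 1320 and 1422 CPM in Adipocyte progenitor, 893 and 761 CPM in Osteoblast progenitor and 10.7 and 7.58 CPM in Pro-osteoblast. Foxc1, at 1046 and 925 CPM, was higher than in Osteoblast progenitor (0.52 ± 0.13) and Pro-osteoblast (3.43 ± 0.2), and its difference from Adipocyte progenitor was 0.34 ± 0.13 (adjusted p = 0.156). The difference of Foxc1 from Osteoblast progenitor did not pass with DESeq2 (adjusted p = 0.104), with no low-count filter (0.0627) or without library 1.2 (0.138). Cebpa, a regulator of fat-cell formation, had 712 and 618 CPM, and Pparg, the master regulator of that lineage, had 69.9 and 62.4 CPM in MSC and 71.2 and 56.5 CPM in Osteoblast progenitor. Runx2, the master regulator of bone formation, stood at 287 and 303 CPM in MSC and 289 and 401 CPM in Osteoblast progenitor, and its difference from the mean was -0.15 ± 0.15. Regulators of the fat lineage and of the bone lineage were thus both counted in the class. Id3, an inhibitor of helix-loop-helix factors, had 1602 and 1456 CPM in MSC and was lower than in Adipocyte progenitor (3188 and 3048 CPM, -1.19 ± 0.13), Osteoblast progenitor (-0.88 ± 0.13) and Pre-adipocyte (-1.83 ± 0.13). Against Pro-osteoblast its difference was -0.57 ± 0.14 on the TMM scale and turned to 0.67 with count totals alone.

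Of 25 adipokine and lipid genes 10 were higher and 2 lower than the mean, where 11.2% of all genes were higher and 9.46% lower. Against Pre-adipocyte, where 1.86% of all genes were higher and 8.48% lower, 1 of the 25 was higher and 2 were lower. Lpl, the lipase that frees fatty acids from lipoproteins, stood at 5338 and 5258 CPM in MSC, 3638 and 2707 CPM in Osteoblast progenitor and 18.1 and 16.7 CPM in Pre-osteoblast/chondrocyte. Apoe stood at 4616 and 4442 CPM in MSC and at 5203 and 5318 CPM in Adipocyte progenitor, a difference of -0.38 ± 0.12 (adjusted p = 0.0493, edgeR). It was the 1 gene of this list that passed against that class, and it did not pass with DESeq2 (adjusted p = 0.769), RLE size factors (0.136), count totals alone (0.628), no low-count filter (0.53) or without library 1.1, 1.2, 2.1 or 2.3 (0.107 to 0.725). Cidec and Plin4, which encode lipid droplet proteins of mature fat cells, and Cfd, which encodes the secreted protease adipsin, had 0 counts in MSC. The 7 mature adipocyte markers summed to 6.86 and 6.82 CPM.

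Secreted modulators of BMP, TGF-beta and Wnt signals differed among themselves. In the BMP and TGF-beta list 11 of 22 genes were higher than the mean and 3 were lower. In single contrasts 5 were higher than in Osteoblast progenitor, 10 than in Pre-osteoblast/chondrocyte and 14 than in Pro-osteoblast. Against Adipocyte progenitor 0 were higher and 2 lower, and against Pre-adipocyte 0 were higher and 4 lower. Bmp4 had 473 and 351 CPM in MSC and differed by 0.89 ± 0.21 from Osteoblast progenitor. Grem1, a BMP antagonist, had 469 and 407 CPM in MSC and was lower than in Adipocyte progenitor (638 and 618 CPM, -0.69 ± 0.16) and Pre-adipocyte (650 and 781 CPM, -1.03 ± 0.18). The first of these did not pass with DESeq2 (adjusted p = 0.144), no low-count filter (0.0566), count totals alone (0.065) or without library 1.1, 1.2 or 2.3 (0.0603 to 0.104). Of 13 Wnt ligand and modulator genes 4 were higher than the mean and 1 was lower, where 11.2% of all genes were higher and 9.46% lower. The lower gene was Wif1, a secreted Wnt inhibitor, with 282 and 285 CPM in MSC, 460 and 509 CPM in Adipocyte progenitor and 2355 and 2771 CPM in Osteoblast progenitor. Wif1 differed by -0.94 ± 0.16 from Adipocyte progenitor, which did not pass with DESeq2 (adjusted p = 0.0577), and by -3.22 ± 0.14 from Osteoblast progenitor, the last in the opposite direction to the other Wnt inhibitor described, Sfrp4.

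Matrix genes split by kind. Of 60 matrix and matricellular genes 31 were higher and 17 lower than the mean. Against Adipocyte progenitor 0 were higher and 4 lower, while against Pro-osteoblast 33 were higher and 19 lower. Igfbp5 and Igfbp4, carriers of insulin-like growth factors, came next after Cxcl12 in abundance in MSC, at 12148 and 13035 CPM and 11443 and 11319 CPM. Igfbp5 was higher than in Osteoblast progenitor (1.23 ± 0.14), while Igfbp4 was not (-0.28 ± 0.15). Col1a2, a chain of type I collagen, had 6442 and 6596 CPM in MSC, far under its level in Pro-osteoblast, with a difference of -6.13 ± 0.35. Postn, the matricellular protein periostin, had 6.86 and 5.85 CPM in MSC and 268 and 260 CPM in Osteoblast progenitor, a difference of -5.35 ± 0.39. Among proteases and inhibitors 7 of 30 genes were higher and 10 lower, a split that turned to 13 higher and 7 lower with count totals alone. Mmp13, a collagenase, had 613 and 584 CPM in MSC against 22819 and 22911 CPM in Pre-osteoblast/chondrocyte (-5.44 ± 0.15).

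Of 17 bone and cartilage matrix genes 2 were higher and 5 lower than the mean, with a median of -1.9, or -2.88 with 9 genes at their bounds. Ibsp, bone sialoprotein, had 5629 and 5962 CPM in MSC, 4817 and 4393 CPM in Pre-osteoblast/chondrocyte and 1827 and 1829 CPM in Pro-osteoblast. Its fitted difference was 0.15 ± 0.14 from Pre-osteoblast/chondrocyte (adjusted p = 0.516, edgeR) and 0.49 ± 0.13 from Pro-osteoblast. Spp1, osteopontin, had 2093 and 1926 CPM in MSC against 74070 and 78255 CPM in Pre-osteoblast/chondrocyte (-5.41 ± 0.18). Alpl, the phosphatase of mineralizing cells, had 107 and 80.9 CPM in MSC and 1060 and 1031 CPM in Osteoblast progenitor (-3.53 ± 0.16). Dmp1, a matrix protein of osteocytes, had 8.23 and 8.77 CPM in MSC. Bglap, osteocalcin, whose reads may be shared with near-identical copies, had 0 and 2.92 CPM in MSC and 5549 and 3719 CPM in Pro-osteoblast.

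**Figure D2:**
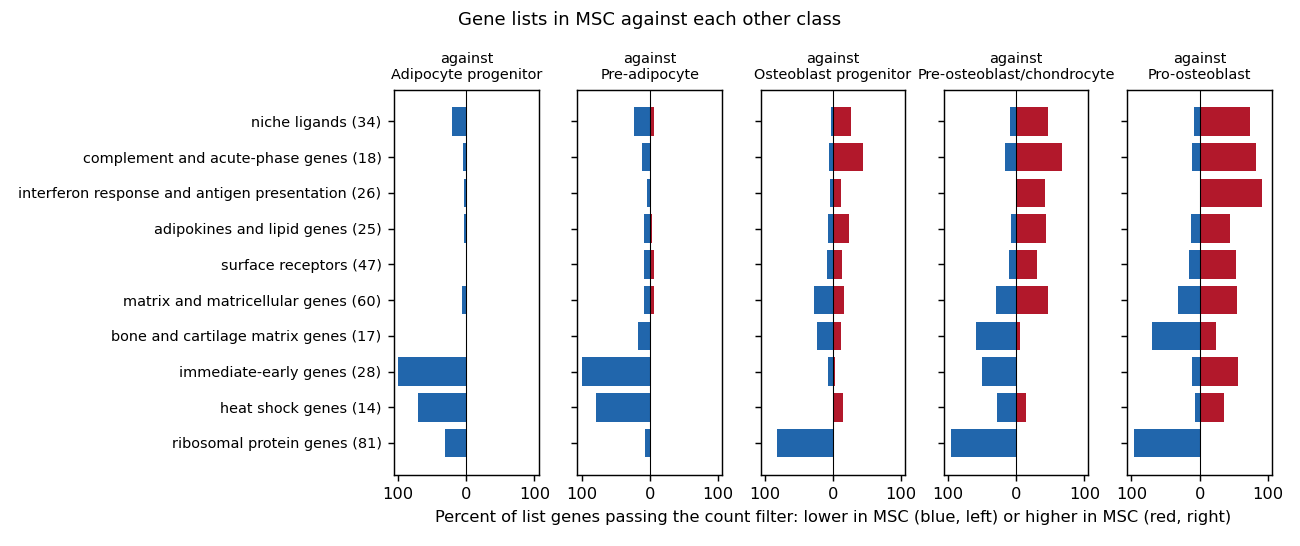
Percent of the genes of 10 lists (number passing the count filter in brackets) that passed the threshold against each of the 5 other classes, lower in MSC to the left in blue and higher to the right in red. Niche ligand, complement and interferon genes reach further to the right than to the left against Pre-osteoblast/chondrocyte and Pro-osteoblast, and all 28 immediate-early genes are on the left against Adipocyte progenitor and Pre-adipocyte.

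MSC differed from both fat-lineage classes in the immediate-early genes, which cells switch on within minutes of a stimulus and which are also known to rise when tissue is dissociated. All 28 measured members were lower in MSC than in Adipocyte progenitor (median -2.55) and all 28 were lower than in Pre-adipocyte (median -3.49), where the medians of all genes were -0.01 and 0.05. Against Osteoblast progenitor 1 was higher and 2 were lower, with a median of 0.15. Against Pre-osteoblast/chondrocyte 0 were higher and 14 lower (median -0.72), and against Pro-osteoblast 16 were higher and 3 lower (median 1.22). Fos, a subunit of the factor AP-1, stood at 2483 and 2670 CPM in MSC, 13321 and 12866 CPM in Adipocyte progenitor, 15768 and 13157 CPM in Pre-adipocyte and 1995 and 2527 CPM in Osteoblast progenitor. The difference was -2.51 ± 0.14 from Adipocyte progenitor and 0.15 ± 0.14 from Osteoblast progenitor. Klf4, a transcription factor of the same early response, stood at 97.4 and 108 CPM in MSC and was lower than in all 5 classes, from -1.0 ± 0.22 (Osteoblast progenitor) to -4.74 ± 0.16 (Pre-adipocyte). Atf3, a stress-induced repressor, had 9.6 and 16.6 CPM in MSC and 288 and 215 CPM in Adipocyte progenitor (-4.32 ± 0.34).

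As a share of all counts the 29 listed immediate-early genes made up 1.02 and 1.05% in MSC, 4.81 and 4.81% in Adipocyte progenitor, 7.94 and 7.7% in Pre-adipocyte and 0.875 and 1.03% in Osteoblast progenitor. Heat shock genes moved with them: 10 of 14 were lower than in Adipocyte progenitor and 11 of 14 were lower than in Pre-adipocyte. The metallothionein Mt1 had 330 and 336 CPM in MSC against 1489 and 1593 CPM in Adipocyte progenitor (-2.37 ± 0.15). The part of cell handling in these differences was not tested. The share of mitochondrial counts, 4.32 and 4.31% in MSC, was 4.06 and 4.05% in Adipocyte progenitor and 2.73 and 3.11% in Pre-adipocyte. The neutrophil genes S100a9 and Retnlg were also above MSC in Pre-adipocyte, at 1340 and 223 CPM and at 289 and 37.2 CPM. In MSC S100a9 had 4.11 and 12.7 CPM and Retnlg 1.37 and 0 CPM. The 10 listed myeloid genes summed to 2022 and 339 CPM in Pre-adipocyte, where Elane, Mpo, Camp, Ngp and Csf1r had 0 counts.

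Single MSC cells varied widely in this response. The median share of a cell's counts was 0.625% in Stroma1 and 0.567% in Stroma2, with the upper quartile at 1.46 and 1.58% and the 95th percentile at 2.77 and 3.08%. The medians in Adipocyte progenitor were 4.59 and 4.77%, with the 5th percentile at 2.55 and 2.47%. Thus 39 of 502 MSC cells (7.77%) and 90 of 815 (11.0%) lay above the 5th percentile of Adipocyte progenitor cells. In Osteoblast progenitor 9 of 144 cells (6.25%) and 32 of 260 (12.3%) did. In Pre-osteoblast/chondrocyte 3 of 25 cells and 16 of 66 did, while in Pro-osteoblast 0 did in either sample. Cells above this limit were therefore not particular to MSC. With every cell thinned to 1000 counts, which kept 400 and 507 MSC cells, the MSC median was 0.6% in both samples.

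**Figure D3:**
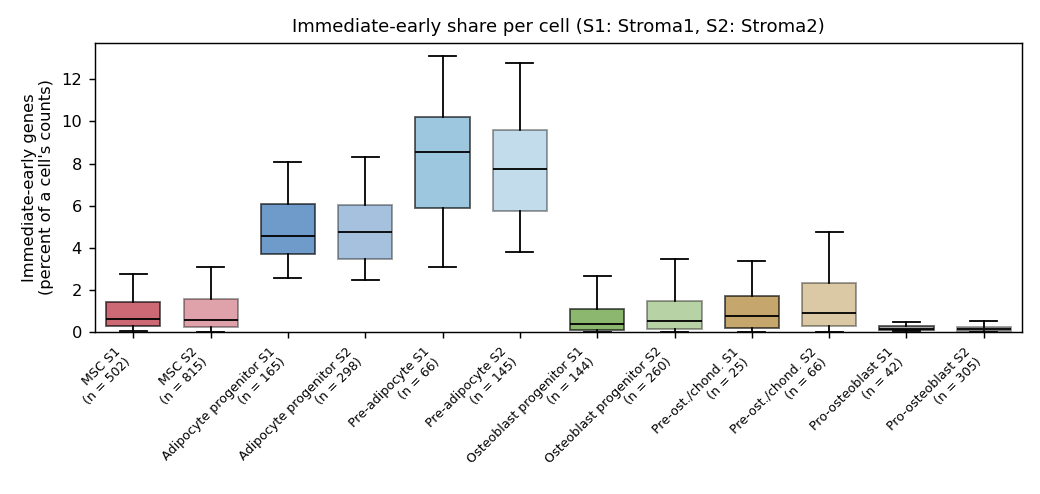
Immediate-early genes as percent of a cell's counts, by class and sample, with boxes from the 25th to the 75th percentile, the median as a line and whiskers at the 5th and 95th percentiles. The MSC medians of 0.625 and 0.567% lie under the lower whiskers of Adipocyte progenitor, at 2.55 and 2.47%.

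Ribosomal protein genes were lower in MSC than the mean for 77 of 81 members, with a median of -0.93. They made up 3.88 and 3.78% of counts in MSC, 4.47 and 4.59% in Adipocyte progenitor, 5.71 and 5.96% in Osteoblast progenitor and 3.75 and 3.58% in Pre-adipocyte. Against Osteoblast progenitor 66 of 81 were lower, while against Adipocyte progenitor 26 and against Pre-adipocyte 5 were lower. With count totals alone none of these calls against the latter pair remained, and the median against Pre-adipocyte turned to 0.09. Cell cycle genes gave 1 higher and 7 lower of 18 against the mean, and Cdk1 and Top2a, expressed by dividing cells, were at 2.74 and 2.92 CPM and at 1.37 and 1.95 CPM in MSC.

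Of the 14 genes higher in MSC than in Adipocyte progenitor, Clec2d had the largest difference among those with at least 50 CPM. Clec2d encodes a C-type lectin-like surface ligand of natural killer cell receptors. It stood at 418 and 407 CPM in MSC, 125 and 139 CPM in Adipocyte progenitor, 75.4 and 134 CPM in Osteoblast progenitor, 80.2 and 65.1 CPM in Pre-adipocyte, 18.1 and 50.1 CPM in Pre-osteoblast/chondrocyte and 26.7 and 4.14 CPM in Pro-osteoblast. It was thus higher in MSC than in all 5 classes in both samples, by 1.47 ± 0.24 against Adipocyte progenitor and 2.69 ± 0.2 against the mean. Cbln1, a secreted protein known from synapses, had 389 and 353 CPM against 206 and 177 CPM in Adipocyte progenitor (0.79 ± 0.22). Cbln1 was close to absent from Osteoblast progenitor, at 21.0 and 10.3 CPM (4.6 ± 0.37). The difference of Cbln1 from Adipocyte progenitor did not pass with DESeq2 (adjusted p = 0.209), with no low-count filter (0.117) or without library 1.1 (0.211) or 2.1 (0.142). With DESeq2 2 genes in all were higher than in Adipocyte progenitor, with no low-count filter 5, without library 1.1 7 and without library 2.1 8.

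Few genes stood far above all other classes in MSC. MSC had the highest CPM of the 6 classes in both samples for 532 of 4876 genes with at least 50 CPM in some class (10.9%), but the median ratio to the next class was 1.27. The next class was Adipocyte progenitor for 253 of them and Osteoblast progenitor for 180. In both samples 16 genes were over 1.5 times the next class and 3 were over 2 times, namely Clec2d, Cybb and Pdzrn4. Cybb, a subunit of the superoxide-forming oxidase, had 71.3 and 62.4 CPM in MSC and 15.6 and 23.1 CPM in Adipocyte progenitor. Pdzrn4, which encodes a ring finger protein, had 147 and 187 CPM in MSC and 68.8 and 92.6 CPM in Adipocyte progenitor. Neither Cybb nor Pdzrn4 passed against Adipocyte progenitor (edgeR, adjusted p = 0.0972 and 0.0847) or Pre-adipocyte (0.155 and 0.113). With TMM-scaled totals 195 genes were highest in MSC, and all 195 were among the 532. For 39 genes MSC had the lowest level.

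Some genes counted in MSC were at 0 counts in a bone-lineage class. Of genes with at least 50 CPM in MSC, 61 had 0 counts in Pre-osteoblast/chondrocyte, the class with the fewest counts, and 18 had 0 counts in Pro-osteoblast. Their share of all genes at that level in MSC is not given here. Bounds against Pre-osteoblast/chondrocyte ran from 2.49-fold (Man1c1 and Mtss1) to 76.4-fold (Chrdl1), and the genes named below lie above the low end. Igf2, a growth factor, had 214 and 249 CPM in MSC, at least 11.8-fold above Pre-osteoblast/chondrocyte. Cx3cl1, the chemokine fractalkine, had 259 and 291 CPM, at least 14.0-fold above that class. Fgf7, a growth factor for epithelial cells, had 208 and 218 CPM in MSC and 0 counts in Pro-osteoblast, at least 48.3-fold higher in MSC on the TMM scale and at least 117-fold higher on count totals. In the opposite direction, Col13a1, a transmembrane collagen, had 0 counts in MSC against 353 and 327 CPM in Pro-osteoblast, which was at least 468-fold higher on the TMM scale and at least 193-fold higher on count totals. Cpe, a carboxypeptidase, had 2.74 and 10.7 CPM in MSC, 256 and 293 CPM in Osteoblast progenitor and 1704 and 1574 CPM in Pro-osteoblast, with differences of -5.2 ± 0.32 and -8.88 ± 0.23.

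The cell-to-cell spread of a gene in MSC was measured as its variance beyond counting error divided by the squared mean, after allowing for each cell's total, so that counting error alone gives 0. Of 508 genes with at least 200 MSC counts in each sample, 269 (53.0%) exceeded 0.5 in both samples, with medians of 0.559 and 0.708. Across genes, which are not independent replicates, the ranks of the samples had a Spearman rho of 0.858, and 34 of the top 50 genes of one sample were in the top 50 of the other. The number over 0.5 depends on how many counts a gene must have: it was 886 with at least 100 counts and 33 with at least 500.

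Cxcl12 had the least spread of the 508 genes, 0.0318 in Stroma1 and 0.031 in Stroma2. The median cell gave 6.28 and 6.53% of its counts to Cxcl12, and cells between the 10th and 90th percentiles gave 4.52 to 7.88% and 4.67 to 8.47%. In Adipocyte progenitor the spread of Cxcl12 was as small, 0.0312 and 0.0458, while in Osteoblast progenitor it was 0.265 and 0.316 and in Pro-osteoblast 5.21 and 13.0. The next most even genes were H2-D1 (0.0918 and 0.102), B2m (0.0896 and 0.112) and H2-K1 (0.129 and 0.119), which encode the class I histocompatibility complex, and Bgn, the proteoglycan biglycan (0.112 and 0.141). Of the other markers, Lepr had a spread of 0.259 and 0.275, Chrdl1 0.354 and 0.397, Adipoq 0.446 and 0.676, Sfrp4 0.485 and 0.598 and Il34 0.771 and 0.989. The niche ligands summed per cell, most of which is Cxcl12, had a spread of 0.0231 and 0.0243.

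At the other end stood Iigp1, an interferon-induced GTPase, with a spread of 8.14 and 8.18. It was counted in 19.9 and 17.7% of MSC cells, with 0 or 1 count up to the 90th percentile and a maximum of 17 and 21. Mgp, matrix Gla protein, an inhibitor of calcification, was uneven at a much higher level: it was counted in 48.8 and 51.3% of cells, reached 9 and 7 counts at the 90th percentile and 29 and 50 at most, and had a spread of 2.49 and 2.75. Igfbp3 (3.48 and 3.42), Mmp13 (5.62 and 3.22) and C3, the central complement protein (4.35 and 2.8), were also carried by 20.2 to 28.2% of cells. Without library 1.1 the Stroma1 values of Mmp13 and C3 were 3.58 and 2.78. Without the cell with most counts of the gene in each sample, the spread was 7.04 and 5.03 for Iigp1 and 2.1 and 2.94 for Igfbp3. Col1a1, the other chain of type I collagen, had 2.33 in Stroma1 and 40.2 in Stroma2, where 1 cell held 18.0% of its counts. Without that cell the value was 27.3. Fos had a spread of 2.23 and 2.15 in MSC against 0.323 and 0.264 in Adipocyte progenitor and 0.673 and 0.762 in Pre-adipocyte. In Osteoblast progenitor it was 2.1 and 1.88 and in Pre-osteoblast/chondrocyte 1.41 and 1.29, so wide spread of Fos was not particular to MSC. Mgp had 2.13 and 2.97 in Adipocyte progenitor, 5.01 and 11.1 in Pre-adipocyte and 9.9 and 5.76 in Osteoblast progenitor. Mmp13 had 8.95 and 14.9 in Adipocyte progenitor, 2.65 and 1.75 in Osteoblast progenitor and 0.154 and 0.36 in Pre-osteoblast/chondrocyte.

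**Figure D4:**
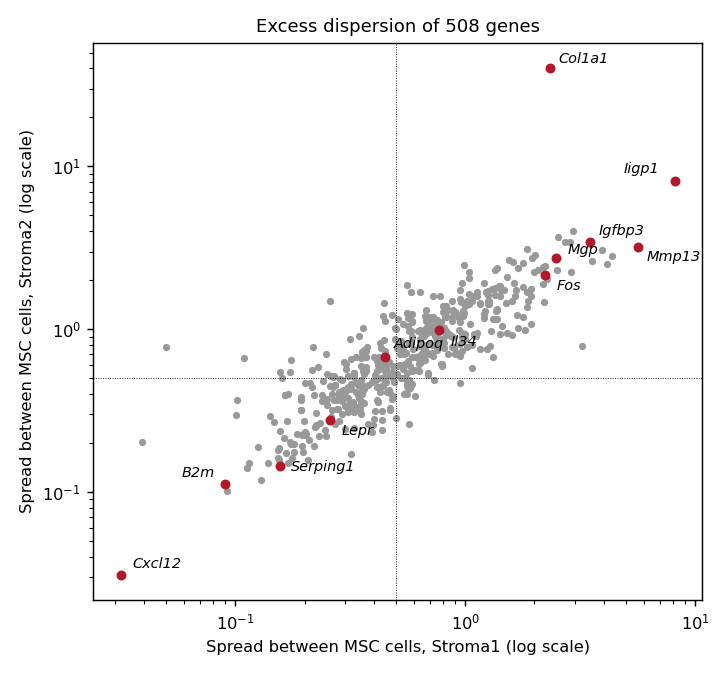
Spread between MSC cells of 508 genes in Stroma1 (horizontal) and Stroma2 (vertical), both on log axes, with named genes in red and dotted lines at 0.5. Cxcl12 lies lowest at 0.0318 and 0.031, Iigp1 at 8.14 and 8.18, and Col1a1 lies off the trend at 2.33 and 40.2.

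Few pairs of genes had a high correlation from cell to cell. Of 128778 pairs among the 508 genes, 31 had a Pearson r over 0.3 in both samples. The r was taken on residuals that allow for each cell's total and the gene's spread, across cells that share libraries and differ in depth. Counts per cell can be low, with a median of 2 for Lepr in both samples, and counting error can hold r down. The number of such pairs therefore does not show how many genes vary together. Most were pairs of mitochondrial genes or pairs of immediate-early genes, such as Fos with Egr1 (0.46 and 0.38), Fos with Dusp1 (0.39 and 0.39) and Fos with Zfp36 (0.39 and 0.39). The metallothioneins Mt1 and Mt2 formed another (0.39 and 0.32). Ibsp varied with Igfbp5 (0.38 and 0.41).

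Marker genes of other cell types were summed in MSC. The level was 35.7 and 37.0 CPM for 6 pan-leukocyte genes, 30.2 and 32.2 CPM for 10 myeloid genes, 111 and 102 CPM for 8 erythroid genes and 54.9 and 102 CPM for 9 endothelial genes, with Plvap at 0. For 6 Schwann cell genes it was 144 and 138 CPM, with Sox10 and Cdh19 at 0. The 8 smooth muscle and pericyte genes reached 1765 and 1634 CPM. Of the 3 that passed the count filter, Mylk (1451 and 1357 CPM) and Myl9 (256 and 232 CPM) were higher than the mean and Acta2 (1.37 and 0 CPM) was lower. The 8 osteoblast genes reached 6372 and 7000 CPM, most of it Ibsp, against 5450 and 4668 CPM in Adipocyte progenitor, 4782 and 6578 CPM in Osteoblast progenitor and 212260 and 210764 CPM in Pro-osteoblast. No doublet caller was run, and doublets of MSC with another class were not examined.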

How the data were processed

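The deposited table holds whole-number counts per gene and barcode for 15028 barcodes of 5 inDrops libraries and 25289 genes, with the authors' filter, class and mitochondrial fraction per barcode, per the file headers. Reads were aligned with Bowtie 1.1.1 to GRCm38, per the submitters' processing notes; the counting tool, its use of strand and of molecular identifiers, and any doublet removal are not stated in the labels, headers or notes. Cells passing the authors' filter were grouped by deposited class, and counts were summed per sample and class. Classes with at least 15 cells in each sample entered 1 edgeR 4.0.16 quasi-likelihood fit (TMM, filterByExpr with a minimum count of 10, class and sample as terms, R 4.3.3), and p-values were Benjamini-Hochberg adjusted over 6229 genes. Fitted values were not used where a class had 0 counts: bounds on a floor of 3 counts over both samples were, and intervals and floors cover counting error only. Summed counts per class and sample ran from 55218 to 1450797. Named genes were the markers, the most abundant genes, those of largest difference, those of largest and smallest spread, the highest and lowest members of each list, and a list of niche genes and regulators. Leprot, Id3, Spp1 and Dusp1 with its partners among gene pairs fall outside that rule or were singled out after their values were seen. The members, gene lists and markers were chosen with earlier results of these data known. The scripts were tested on simulated data. Of simulated 2-fold changes, 45% were recovered against Adipocyte progenitor, 43% against Osteoblast progenitor and 28% against Pre-adipocyte. The share was 15% against Pre-osteoblast/chondrocyte and 50% against Pro-osteoblast, so a gene that did not pass may still differ. Some genes that the rule names are not reported here. DESeq2 1.42.0, other scalings and filters, each library or sample left out, and each barcode once were tried as alternatives.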

Additional observations from a re-analysis of the deposited data

How the results depend on the processing

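Over all alternatives 152 counts and shares were unchanged and 28 moved. A count was unchanged within 1.5 times of the reported value, and a median share where the thinned value lay between the quartiles of the cells as deposited. Of the values recomputed for genes named by rule 1136 were unchanged, 103 moved, 46 lost the threshold, 4 gained it and 2 reversed. Unchanged means the same side of the threshold with no passing value reversed. For 1 sample alone it means within the SE, and for spread within the gap between the samples. The reversed values were Serpine2 (-0.07) and Tnc (-0.38), both without Pro-osteoblast in the mean. Over all genes that passed, count totals alone changed the sign of 486 of 2407 against Pro-osteoblast, Id3 among them, and of 13 of 1285 against the mean. Without Pro-osteoblast in the mean, 414 genes were higher than the mean. Against the mean, 382 genes were lower with no low-count filter, 374 without library 1.1 and 391 without library 1.2, where by construction fewer genes were tested (4712 and 4732). Against Adipocyte progenitor the higher genes numbered 2 with DESeq2, 5 with no low-count filter, 7 without library 1.1 and 8 without library 2.1, and the lower genes 153 with DESeq2, 152 without library 1.1 and 161 without library 1.2. Against Osteoblast progenitor DESeq2 gave 113 higher and 160 lower, and the lower genes numbered 176 with no low-count filter and 183 without library 1.2. Against Pre-adipocyte DESeq2 gave 22 higher. With count totals alone, an alternative added after seeing the data, 1829 genes were higher and 302 lower than the mean, 48 were higher than in Adipocyte progenitor, 518 were higher than in Pre-adipocyte, and 4006 were higher and 409 lower than in Pro-osteoblast. Genes highest in MSC numbered 172 at a mean of at least 200 CPM, 1036 to 1100 in 1 sample alone and 195 with TMM-scaled totals, also added after seeing the data. Genes over 0.5 in spread numbered 886 and 33 at minimums of 100 and 500 counts. Except for the scaling, the cause of these shifts was not tested. Leaving out a whole sample leaves no residual spread, so it gives values and no test. Sample is a term of the fit, so the reported values are paired by sample. Pre-osteoblast/chondrocyte, with 55218 and 119724 summed counts, limits what its contrast can show.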
